A study of Mus musculus with 12 samples.

Results

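The genes described here are 10 listed as arrest and feedback targets of the transcription factor p53: Cdkn1a, Ccng1, Mdm2, Phlda3, Trp53inp1, Zmat3, Eda2r, Psrc1, Exoc4 and Cox6b2. Arrest and feedback is the name of the list, and several of the genes have other known roles, given below. All 10 genes were chosen by name from the 33696 genes counted in the series, and all had an entry in the count matrices. They were listed with the radiation response of these same cells already known. The radiation contrast is therefore given for them as values and counts without p-values, and tests are printed for other contrasts only. Contrasts that include irradiated pools share values with that response, so their p-values are no independent support for these genes. The cells were T cells sorted from tumours of MC38, a mouse colorectal cancer line, grown in mice heterozygous for Kaede, a fluorescent protein that violet light turns from green to red. On tumour day 14 the tumour-draining lymph node was illuminated, so that cells then in the node became red, and the tumours of the irradiated mice were given 12 Gy straight afterwards. The conditions were RT D1 (irradiated) against NT D1 (not irradiated), both harvested after 24 hours, RT D3 against NT D3, both harvested after 72 hours, and RT+FTY720 D3 against FTY720 D3, also harvested after 72 hours, in which the mice had received 10 µg of FTY720, a drug that keeps lymphocytes from leaving lymph nodes, on tumour day 15. Each of the 6 conditions had 2 replicate pools of 4 tumours, so 12 pools in all, and each pool was sorted into red and green live CD90.2+ cells, which gave 24 hashtagged samples. Every p-value below measures the spread between these pools.

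In an undisturbed cell p53 is held low by Mdm2, a ubiquitin ligase that marks it for degradation and is itself a p53 target. DNA breaks, such as those made by ionising radiation, release p53 from Mdm2, and p53 then switches on genes that halt the cell cycle, genes that damp its own activity and genes of cell death. In T cells this response is well known after irradiation, and resting lymphocytes are among the most radiosensitive cells of the body. Cdkn1a encodes p21, an inhibitor of cyclin-dependent kinases and the main arrest gene of the pathway. Ccng1 encodes cyclin G1, which recruits a phosphatase to Mdm2 and so limits p53. Trp53inp1 encodes a stress-induced nuclear protein that promotes p53 activity, Zmat3 an RNA-binding zinc finger protein, Phlda3 a pleckstrin homology domain protein that restrains Akt, and Eda2r the receptor of the A2 form of ectodysplasin. Psrc1 encodes a microtubule-binding protein of the mitotic spindle, Exoc4 a subunit of the exocyst, which tethers secretory vesicles, and Cox6b2 a testis-enriched isoform of a cytochrome c oxidase subunit.

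The promoters of Cdkn1a and Ccng1 are shown because each carries, close to its start, a near-complete match to the p53 consensus, the 20-base palindromic motif that p53 binds. The windows run from 250 bases before to 50 bases after the annotated start, come from RefSeq on GRCm38.p6, and have the match in capitals. The Cdkn1a window is chr17:29090729-29091028 on the plus strand, and its match begins 51 bases before the start. The Ccng1 window is chr11:40755237-40755536 on the minus strand, and its match begins 195 bases before the start.
Cdkn1a: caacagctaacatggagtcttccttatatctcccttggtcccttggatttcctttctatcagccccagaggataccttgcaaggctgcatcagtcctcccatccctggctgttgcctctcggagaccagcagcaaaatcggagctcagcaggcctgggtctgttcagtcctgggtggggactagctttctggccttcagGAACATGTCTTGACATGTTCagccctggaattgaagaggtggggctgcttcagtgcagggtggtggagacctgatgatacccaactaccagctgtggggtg
Ccng1: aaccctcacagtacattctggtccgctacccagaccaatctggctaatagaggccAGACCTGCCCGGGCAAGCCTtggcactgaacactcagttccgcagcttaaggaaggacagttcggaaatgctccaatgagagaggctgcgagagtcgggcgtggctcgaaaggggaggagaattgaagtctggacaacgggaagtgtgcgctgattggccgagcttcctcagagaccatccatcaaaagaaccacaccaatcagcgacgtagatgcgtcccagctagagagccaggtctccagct
Both matches had 1 mismatch to the p53 consensus without a spacer, searched on both strands. In all windows only sites that keep every fixed C and G of the consensus were counted. Of 32817 mouse promoter windows of 300 bases, 22 held a match with at most 1 mismatch, which is 0.0670%, and 3 of these were exact. A window was found for 8 of the 10 genes, with 10 windows in all, and none was found for Trp53inp1 and Zmat3. In the other windows the best such site had 5 mismatches for Phlda3, 7 for another annotated start of Cdkn1a and 8 for Exoc4. It had 9 for Mdm2, 9 for Eda2r, 10 for Psrc1 and 11 for Cox6b2. Sites with fewer mismatches that break a fixed C or G may exist and were not counted. These counts describe the letters in these windows and say nothing of p53 binding elsewhere in these genes.

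The deposited matrices of the 4 wells held 692, 148, 1691 and 285 barcodes, of which 2740 in all passed the quality filter, and no barcode occurred in more than 1 well. RT D1, NT D1 and NT D3 shared a well in each replicate, while RT D3, RT+FTY720 D3 and FTY720 D3 shared another, so radiation at day 3 without FTY720 cannot be told apart from the well. Clustering without the p53 genes gave 1312 CD8-like cells, 594 Foxp3+ CD4 cells, 399 conventional CD4-like cells, 217 CD8 cells led by Klra7 and Eomes, 153 naive CD8-like cells and 63 naive CD4-like cells. Cd8a was detected in 96.4% of the CD8-like cells, Foxp3 in 93.9% of the Foxp3+ CD4 cells, Cd4 in 97.0% of the conventional CD4-like cells, and Ccr7 in 97.4% of the naive CD8-like cells and 96.8% of the naive CD4-like cells. The class led by Klra7 and Eomes is named for its leading genes only: Klra7 was detected in 20.3% of its cells and Eomes in 74.2%, beside Cd8a in 85.3%, Ccr7 in 73.7% and Lef1 in 95.4%. Cd74, an antigen-presentation gene, was detected in 66.8% of the Foxp3+ CD4 cells. Levels are CPM, the UMIs (counted transcript molecules) of a gene per 1000000 UMIs of all genes, summed over the cells of 1 class in 1 pool, with at least 5 cells in a sum. How many of all genes do not overlap between groups of pools was not counted, so statements on overlap describe the named genes only.

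Colour rests on a conflict between the sources. In replicate 2 the hashtag names inside the matrices exchange red and green relative to the hashtag numbers in the sample labels, and the names in the matrices are used here. The counts of genes past the threshold in CD8-like and Foxp3+ CD4 cells by colour, and those for red against green, were therefore also computed with the colours of the labels. Levels, shares of cells, pairs and cell cycle values by colour are given with the names in the matrices only, and their replicate 2 colours would be exchanged under the labels. Results with both colours summed do not depend on the choice. Several pools stand apart: FTY720 D3 replicate 1 in CD8-like cells (10 green and 9 red cells) and Foxp3+ CD4 cells (8 cells), red CD8-like cells of RT D1 replicate 1, conventional CD4-like cells of FTY720 D3 replicate 2 (12 cells), and conventional CD4-like cells of RT+FTY720 D3 replicate 1 (10 cells).

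Green CD8-like cells of irradiated tumours held more RNA of the arrest gene Cdkn1a, and of Ccng1, Phlda3, Trp53inp1, Zmat3 and Exoc4, than green CD8-like cells of unirradiated tumours. Mdm2 was not past the threshold. Cdkn1a was at 154, 154, 141, 119, 170 and 174 CPM in the RT pools, against 3.82, 13.5, 7.97, 22.7, 0 and 15.0 in the NT pools, in the order replicate 1 and 2 of D1, of D3 and of D3 with FTY720. All 6 RT pools lay above all 6 NT pools, with no overlap. The means were 152 ± 20.3 in RT pools and 10.5 ± 8.22 in NT pools (SD, n = 6 each), a log2 fold change of 3.61 ± 0.32 (SE). The sums behind these values held 11 to 95 cells in RT pools and 10 to 140 cells in NT pools.

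Ccng1 was at 290, 325, 242, 90.6, 148 and 255 CPM in the RT pools, against 72.6, 89.7, 76.2, 80.4, 51.5 and 48.3 in the NT pools. The groups did not overlap, but the lowest RT pool, RT D3 replicate 2, lay just above the highest NT pool. The log2 fold change of Ccng1 was 1.69 ± 0.23. Phlda3 was at 49.1, 55.1, 4.39, 6.25, 6.18 and 33.4 CPM in the RT pools, against 3.06, 0.918, 0.569, 2.90, 0 and 0 in the NT pools. The RT pools spread widely, with both day 1 pools and RT+FTY720 D3 replicate 2 high and the other 3 low, and still did not overlap the NT pools. The 3 low values rest on a few UMIs each. They come from 11, 19 and 18 cells of RT D3 replicate 1, RT D3 replicate 2 and RT+FTY720 D3 replicate 1. All green cells of these samples held 505663, 669270 and 454689 UMIs. Its log2 fold change was 3.94 ± 0.64.

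The overlap of Trp53inp1 between the groups came from 1 pool, and Zmat3 overlapped with and without it. Trp53inp1 had a lowest, median and highest value of 55.6, 88.7 and 118 CPM in RT pools, against 22.2, 29.8 and 68.6 in NT pools, and 4 of the 6 RT pools lay above the highest NT pool, with a log2 fold change of 1.49 ± 0.24. The NT pool at 68.6 was FTY720 D3 replicate 1, and the other NT pools reached 36.0, below all 6 RT pools. Zmat3 spanned 14.3, 34.9 and 48.3 in RT pools, against 6.12, 13.2 and 25.7 in NT pools, with 4 of 6 RT pools above and a log2 fold change of 1.43 ± 0.35. Without FTY720 D3 replicate 1, also the highest here, 5 of 6 RT pools lay above the NT pools, which reached 16.5. Mdm2, the central brake on p53, was at 91.1, 106, 83.5, 93.8, 58.7 and 54.9 CPM in RT pools, against 48.9, 64.3, 63.2, 75.5, 116 and 56.7 in NT pools. The NT pool at 116 was FTY720 D3 replicate 1, with 10 cells. No RT pool lay above it, and 4 of 6 RT pools lay above the other 5 NT pools. The log2 fold change of Mdm2 was 0.37 ± 0.21. Without that pool it was 0.53 ± 0.16, and it was not past the threshold in either fit.

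Exoc4 spanned 213, 428 and 635 CPM in RT pools, against 184, 191 and 270 in NT pools, and 5 of 6 RT pools lay above the highest NT pool, with a log2 fold change of 1.04 ± 0.17. The highest NT pool was again FTY720 D3 replicate 1, and the other NT pools reached 210, below all 6 RT pools. Psrc1 and Cox6b2 were near 0 in unirradiated cells and did not pass the filter on low counts in green cells alone. Psrc1 was at 23.4, 41.2, 13.2, 0, 9.26 and 14.3 CPM in RT pools, against 2.29, 6.43, 7.97, 2.03, 0 and 0 in NT pools. Cox6b2 was at 32.7, 43.8, 17.6, 3.13, 6.18 and 0 in RT pools, against 2.29, 1.22, 2.84, 2.32, 0 and 0 in NT pools. For both genes the 2 RT D1 pools were the highest and 5 of 6 RT pools lay above every NT pool. The lower of these values rest on a few UMIs each, such as Cox6b2 at 3.13 CPM in the 19 cells of RT D3 replicate 2. Eda2r was barely detected: 7 UMIs of 10863408 in all irradiated CD8-like cells, which is 0.644 CPM, all of them in green cells of RT D1 replicate 2 and RT+FTY720 D3 replicate 2, and 0 of 21435487 in unirradiated CD8-like cells, which allows up to 0.140 CPM. Counting limits of this kind cover counting error only.

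**Figure D1:**
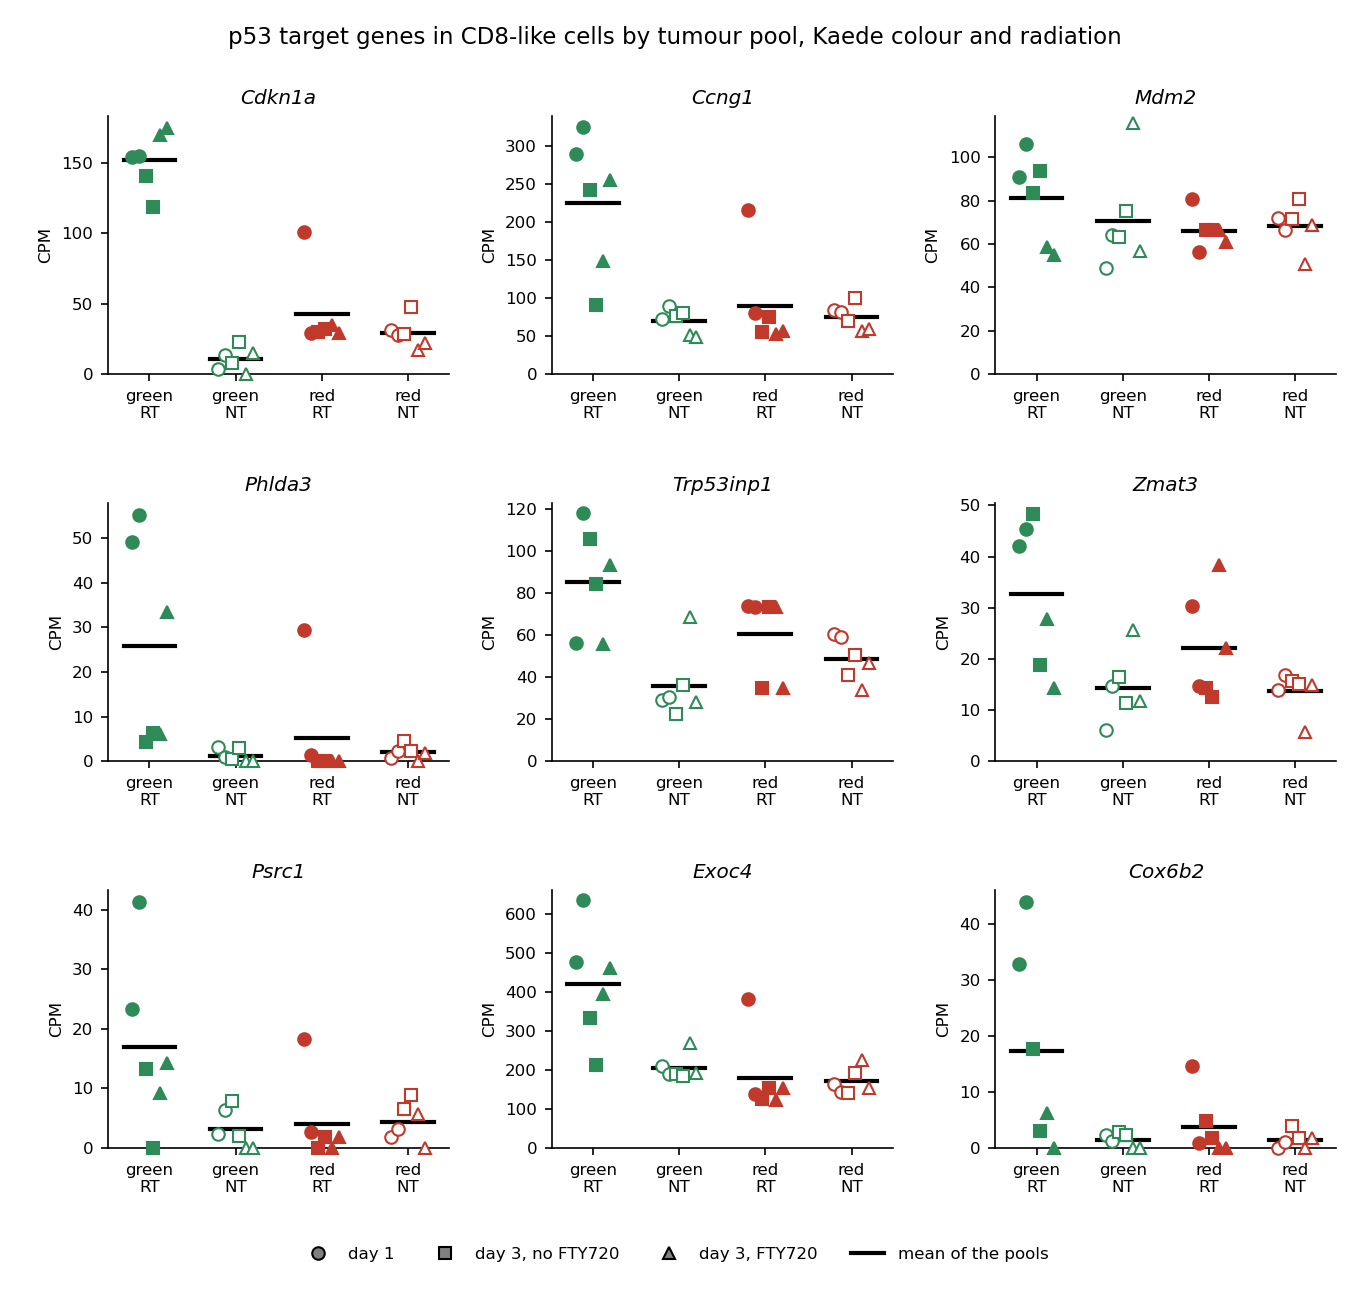
Levels of 9 of the 10 genes in CD8-like cells, in CPM, with 1 point per tumour pool, filled for RT and open for NT, green cells on the left and red cells on the right of each panel, and a black line at the mean. Circles are day 1, squares day 3 and triangles day 3 with FTY720; in green cells the 6 RT pools of Cdkn1a sit between 119 and 174 and the 6 NT pools between 0 and 22.7, while in red cells only RT D1 replicate 1, at 101, stands above the rest.

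In green CD8-like cells 7 of the 10 genes passed the filter on low counts, and 6 of these were higher past the edgeR threshold (Benjamini-Hochberg adjusted p under 0.05), where 3.78% of the 7413 genes tested were. The contrast chose the genes, so the count is a description. The median log2 fold change of the 7 was 1.49, beside 0.02 over all genes tested. With the day 1 and FTY720 strata alone, in which RT and NT pools share a well, 3 of the 7 were past the threshold, as were 3 of all 7062 genes tested, with log2 fold changes of 4.00 ± 0.36 for Cdkn1a, 1.98 ± 0.18 for Ccng1 and 5.08 ± 0.57 for Phlda3. With the colours of the labels none was, nor was any of 7554 genes higher past the edgeR threshold (841 had an unadjusted p under 0.05), and the log2 fold change of Cdkn1a was 2.04 ± 0.68.

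Red CD8-like cells showed the pattern in 1 pool. Red cells of RT D1 replicate 1, 89 cells, held 101 CPM of Cdkn1a, against 29.2 to 35.0 in the other 5 RT pools and 17.0 to 47.7 in the 6 NT pools. The same pool was at 215 for Ccng1 and 382 for Exoc4, while the other 5 RT pools spanned 52.4 to 80.4 for Ccng1 and 122 to 154 for Exoc4. The log2 fold changes in red cells were 0.59 ± 0.33 for Cdkn1a, 0.24 ± 0.26 for Ccng1 and 0.12 ± 0.25 for Exoc4. Without RT D1 replicate 1 they were 0.05 ± 0.21, -0.15 ± 0.14 and -0.24 ± 0.14 in the same order. None of the 6 genes that passed the filter was past the threshold in red cells, where 0.98% of all genes were higher and 847 had an unadjusted p under 0.05, and DESeq2 called none. With the colours of the labels 1 was, Cdkn1a at a log2 fold change of 2.23 ± 0.41, where 127 of 9174 genes were higher.

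With both colours summed, a measure that the hashtag conflict does not touch, Cdkn1a averaged 85.1 ± 21.3 CPM in the RT pools and 19.4 ± 7.99 in the NT pools (SD, n = 6 each), again with no overlap. The lowest RT pool was RT D3 replicate 1 at 59.5 and the highest NT pool was NT D3 replicate 2 at 32.2. Of the 10 genes 9 passed the filter and 6 were higher past the threshold, where 2.77% of all genes were: Phlda3 (2.73 ± 0.61), Cox6b2 (2.64 ± 0.58), Cdkn1a (2.00 ± 0.22), Ccng1 (0.96 ± 0.17), Zmat3 (0.86 ± 0.21) and Trp53inp1 (0.79 ± 0.13), all as log2 fold changes with SE. Psrc1 (1.42 ± 0.56), Exoc4 (0.57 ± 0.15) and Mdm2 (0.12 ± 0.11) were not. Leaving out any of the 4 day 1 pools took the count to 3, and leaving out the mixed clusters took it to 2 of 8 genes, where 134 of 9621 genes were higher.

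In Foxp3+ CD4 cells, the class that carries the regulatory T cell marker Foxp3, green and red cells were again taken apart, and a difference of the radiation effect between the colours was not tested. Green Foxp3+ cells reached the 5-cell minimum in 3 RT pools, RT D1 replicate 1 with 5 cells, RT D1 replicate 2 with 41 and RT D3 replicate 1 with 8, and in 5 NT pools. In these green cells Cdkn1a was at 218, 347 and 323 CPM in RT pools, against 158, 133, 58.4, 44.7 and 38.9 in NT pools, and Ccng1 at 327, 463 and 371 in RT pools, against 78.8, 97.1, 108, 85.3 and 122 in NT pools. Neither gene overlapped between the groups, nor did Exoc4, Phlda3, Trp53inp1 and Zmat3. With 3 and 5 sums such separation is easy to reach, and its share over all genes was not counted. The log2 fold changes in green Foxp3+ cells were 1.72 ± 0.33 for Cdkn1a, 2.09 ± 0.25 for Ccng1, 1.59 ± 0.26 for Exoc4, 5.28 ± 0.98 for Phlda3, 1.64 ± 0.54 for Zmat3 and 0.65 ± 0.29 for Trp53inp1. Of 7 genes that passed the filter 1, Ccng1, was past the threshold, and it was also the only one of all 7824 genes tested, 0.0128%. That call was lost without RT D1 replicate 2 and with the colours of the labels, where 0 of 6788 genes were higher past the edgeR threshold and 390 had an unadjusted p under 0.05.

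In red Foxp3+ cells Cdkn1a had the largest difference. Its lowest, median and highest values were 40.7, 117 and 221 CPM in 6 RT pools, against 36.3, 49.3 and 58.3 in 5 NT pools, with 5 of 6 RT pools above the highest NT pool. Ccng1 averaged 139 ± 41.5 in RT pools and 138 ± 33.3 in NT pools, and Exoc4 146 ± 46.7 in RT pools and 163 ± 27.3 in NT pools (SD, n = 6 and 5). The log2 fold changes in red Foxp3+ cells were 1.31 ± 0.27 for Cdkn1a, 0.09 ± 0.20 for Ccng1, -0.06 ± 0.21 for Exoc4 and 0.14 ± 0.26 for Trp53inp1. None of the 6 genes tested was past the threshold, where 0.0844% of all genes were and 498 had an unadjusted p under 0.05, and DESeq2 called 1. With both colours summed, Cdkn1a averaged 143 ± 77.0 in RT pools and 64.2 ± 25.9 in NT pools (SD, n = 6 each), a log2 fold change of 1.33 ± 0.31, and 0 of 6 genes were past the threshold, where 0.23% of all genes were higher and 695 genes had an unadjusted p under 0.05; DESeq2 called 1.

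Conventional CD4-like cells, which lack Foxp3, had the highest mean Cdkn1a of any class after irradiation, with both colours summed. Cdkn1a was at 236, 249, 163, 161, 502 and 166 CPM in the RT pools, against 29.3, 60.2, 15.5, 29.8 and 183 in 5 NT pools. The NT pool at 183 was FTY720 D3 replicate 2, with 12 cells, and it was the only NT pool within the range of the RT pools. The same pool was also the highest NT pool for Phlda3, at 89.2, and for Ccng1, at 187. The log2 fold changes over all pools were 2.14 ± 0.33 for Cdkn1a, 0.94 ± 0.18 for Ccng1, 0.69 ± 0.22 for Trp53inp1, 1.77 ± 0.82 for Phlda3, 0.51 ± 0.21 for Exoc4 and 0.14 ± 0.18 for Mdm2. Of 8 genes tested 0 were past the edgeR threshold, where 0.0% of all genes were and 797 had an unadjusted p under 0.05; DESeq2 called 2. Without FTY720 D3 replicate 2, Cdkn1a was past the threshold at 2.58 ± 0.31, Ccng1 was at 1.09 ± 0.18 and Phlda3 at 3.72 ± 0.71.

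In red conventional CD4-like cells Cdkn1a was also higher in irradiated tumours. It was at 237, 174 and 279 CPM in 3 RT pools, against 31.5, 64.0, 18.0 and 8.79 in 4 NT pools, with no overlap. With 3 and 4 sums such separation is easy to reach, and radiation was not fitted by colour in this class. In green cells Cdkn1a averaged 274 ± 150 in RT pools and 66.8 ± 71.8 in NT pools (SD, n = 5 each), and 4 of the 5 RT pools lay above the highest NT pool. Trp53inp1 in green conventional cells averaged 155 ± 11.7 in RT pools and 88.3 ± 32.5 in NT pools, with no overlap.

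Naive CD8-like cells, which express Ccr7, showed little Cdkn1a except in 1 sum. With both colours summed Cdkn1a was at 0, 45.0 and 0 CPM in 3 RT pools, against 3.11, 4.62, 3.12 and 1.11 in 4 NT pools. Green naive CD8-like cells reached 5 cells in 1 RT pool only, RT D1 replicate 2 with 10 cells, where Cdkn1a was at 159, Ccng1 at 205, Exoc4 at 806, Psrc1 at 79.3 and Cox6b2 at 92.5. In the 4 green NT pools Cdkn1a spanned 0 to 5.54, Ccng1 38.8 to 68.1 and Exoc4 190 to 295. In red naive CD8-like cells Cdkn1a was 0 in all 3 RT pools, against 0 to 7.25 in 4 NT pools. Those RT sums held 6, 22 and 5 cells, too few to tell a count of 0 from the levels of the NT pools. Ccng1 and Trp53inp1 were higher without overlap when both colours were summed: Ccng1 averaged 90.6 ± 17.3 in RT pools and 54.7 ± 9.87 in NT pools, and Trp53inp1 109 ± 19.8 in RT pools and 72.1 ± 11.5 in NT pools (SD, n = 3 and 4). Their log2 fold changes were 0.82 ± 0.26 and 0.54 ± 0.24. With 3 and 4 pools such separation is easy to reach, and its share over all genes was not counted. Of the 10 genes 4 passed the filter and 0 were past the edgeR threshold, where 0.0% of all genes were and 409 had an unadjusted p under 0.05; DESeq2 called none.

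Naive CD4-like cells reached the minimum in 2 RT pools and 3 NT pools. Ccng1 was at 82.3 and 150 CPM in the RT pools, against 39.3, 57.5 and 64.9 in the NT pools, and Cdkn1a at 38.7 and 0 in the RT pools, against 0, 0 and 16.2 in the NT pools. Ccng1 did not overlap, Cdkn1a did. The log2 fold change of Ccng1 was 1.19 ± 0.50. Of 4 genes tested 0 were past the edgeR threshold, where 0.0% of all genes were and 108 had an unadjusted p under 0.05, and DESeq2 called none. Among the CD8 cells led by Klra7 and Eomes, Cdkn1a was at 132, 124 and 11.9 in 3 RT pools, against 2.53 to 23.7 in 6 NT pools, and Exoc4 at 426, 418 and 209 in RT pools, against 138 to 202 in NT pools. Exoc4 did not overlap, while the RT D3 pool, at 11.9, lay within the NT pools for Cdkn1a. The log2 fold changes in these cells were 2.47 ± 0.45 for Cdkn1a, 1.16 ± 0.40 for Ccng1, 0.80 ± 0.21 for Exoc4 and 3.22 ± 1.13 for Phlda3. Of 7 genes tested 0 were past the edgeR threshold, where 0.0% of all genes were and 450 had an unadjusted p under 0.05, and DESeq2 called none.

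**Figure D2:**
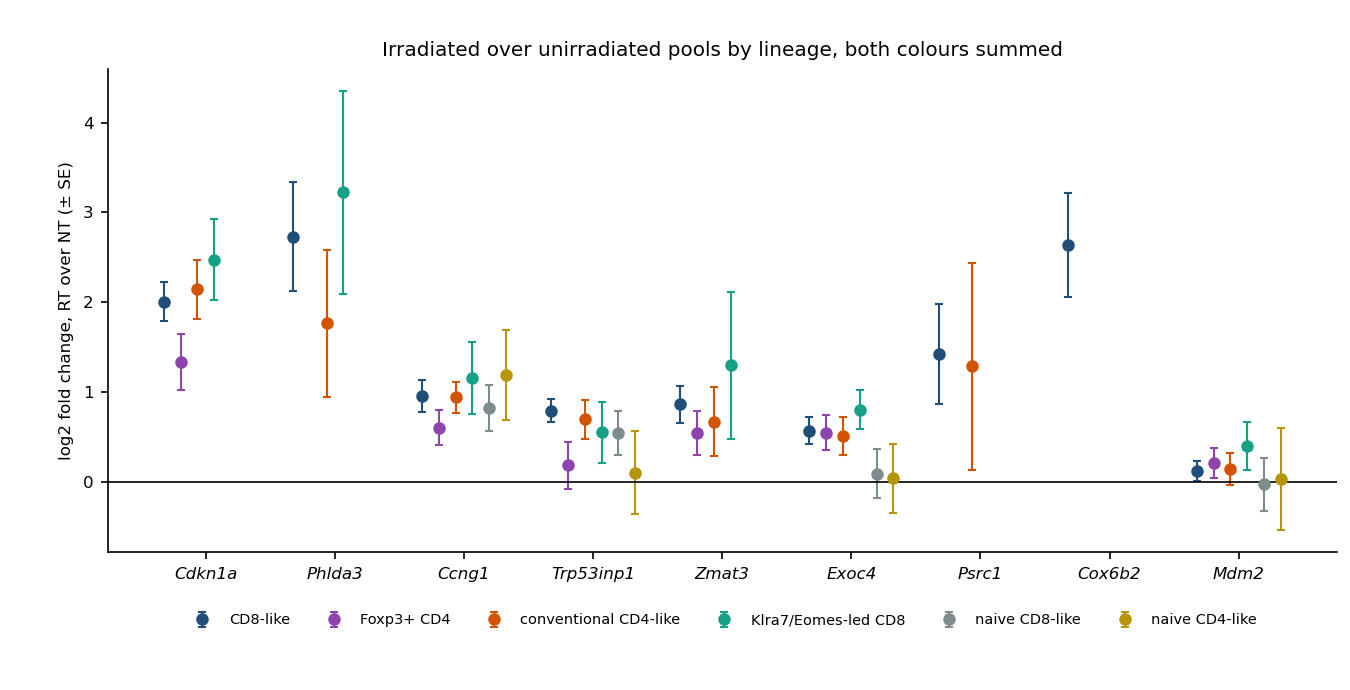
Log2 fold change of RT over NT with its SE for each gene in 6 classes of T cell, both colours summed, over the 3 strata of day and FTY720. Cdkn1a lies at 2.00 in CD8-like, 1.33 in Foxp3+ CD4, 2.14 in conventional CD4-like and 2.47 in Klra7/Eomes-led CD8 cells, and Mdm2 lies between -0.03 and 0.40 in the 6 classes.

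In unirradiated tumours the classes differed in how much of each gene they held. The order for Cdkn1a was Foxp3+ CD4 cells at 64.2 ± 25.9 CPM, conventional CD4-like cells at 63.5 ± 68.6, CD8-like cells at 19.4 ± 7.99, the Klra7/Eomes-led CD8 cells at 10.7 ± 8.13, naive CD4-like cells at 5.41 ± 9.36 and naive CD8-like cells at 2.99 ± 1.44 (SD over pools). The ranges over pools overlapped between all neighbours in this order. The second place rests partly on FTY720 D3 replicate 2, at 183 from 12 cells, and without it conventional CD4-like cells were at 33.7 ± 18.9 (SD, n = 4). Trp53inp1 was ordered differently, with Foxp3+ CD4 cells at 131 ± 54.0, conventional CD4-like cells at 106 ± 39.0, naive CD4-like cells at 103 ± 42.1, naive CD8-like cells at 72.1 ± 11.5, CD8-like cells at 42.9 ± 8.14 and the Klra7/Eomes-led CD8 cells at 27.7 ± 12.2. The ranges of the first 4 classes overlapped between neighbours, as did those of the last 2, while naive CD8-like cells, at 58.8 to 86.2, lay above CD8-like cells, at 30.9 to 53.7. Without FTY720 D3 replicate 1, at 239 from 8 cells, Foxp3+ CD4 cells were at 109 ± 11.5 (SD, n = 5).

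Radiation was then compared within each day. In CD8-like cells with both colours summed, Phlda3 was at 32.6 and 22.4 CPM in RT D1, against 1.69 and 1.74 in NT D1, and at 1.17 and 2.28 in RT D3, against 2.43 and 2.70 in NT D3. Exoc4 was at 397 and 332 in RT D1, against 184 and 163 in NT D1, and at 181 and 175 in RT D3, against 167 and 187 in NT D3. Cdkn1a was at 110 and 78.4 in RT D1, against 19.2 and 21.8 in NT D1, and at 59.5 and 63.8 in RT D3, against 17.6 and 32.2 in NT D3. The RT pools lay above the NT pools for all 3 genes at day 1, and at day 3 only for Cdkn1a, while Exoc4 overlapped and Phlda3 was low in all 4 pools. At day 1 the log2 fold changes of RT over NT were 3.98 ± 0.46 for Phlda3, 2.20 ± 0.26 for Cdkn1a, 1.32 ± 0.18 for Ccng1 and 1.10 ± 0.16 for Exoc4. Of 9 genes 5 were past the threshold, where 0.117% of all genes were. At day 3 they were -0.51 ± 0.88 for Phlda3, 1.33 ± 0.30 for Cdkn1a, 0.26 ± 0.20 for Ccng1, 0.06 ± 0.17 for Exoc4 and 0.90 ± 0.22 for Trp53inp1. At day 3 alone 2 of 9 genes, Cdkn1a and Trp53inp1, were past the threshold, where 3.14% of all genes were.

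The difference of the radiation effect between day 3 and day 1 uses radiation values that were known when the genes were listed. Its p-values are therefore no independent support for these genes. The difference was tested with edgeR over all 10278 genes. It was -4.49 ± 0.90 on the log2 scale for Phlda3 (adjusted p = 0.0866), -1.04 ± 0.23 for Exoc4 (adjusted p = 0.121), -3.66 ± 0.86 for Psrc1 (adjusted p = 0.129), -1.07 ± 0.27 for Ccng1 (adjusted p = 0.145) and -2.99 ± 0.92 for Cox6b2 (adjusted p = 0.224). For Cdkn1a it was -0.87 ± 0.39 (adjusted p = 0.425) and for Trp53inp1 0.08 ± 0.29 (adjusted p = 0.960). None of the 9 genes passed the threshold, where 0.195% of all genes did and 1161 genes had an unadjusted p under 0.05. On simulated counts this contrast recovered 18.9% of genes given a log2 change of 1 and 71.1% of those given 2. The lack of calls is therefore no sign that the effect was the same on both days. DESeq2 called 3 of the 9 as lower, Phlda3, Psrc1 and Exoc4, and 62 of all 10278 genes as lower. The direction was the same in green cells alone, where the difference was -3.51 ± 1.40 for Phlda3 (adjusted p = 0.543) and -0.93 ± 0.33 for Exoc4 (adjusted p = 0.491), with 0 of 9 genes and 0.0% of all genes past the threshold and 671 with an unadjusted p under 0.05. The day 3 side of this contrast lies across wells, so the day cannot be told apart from the well.

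**Figure D3:**
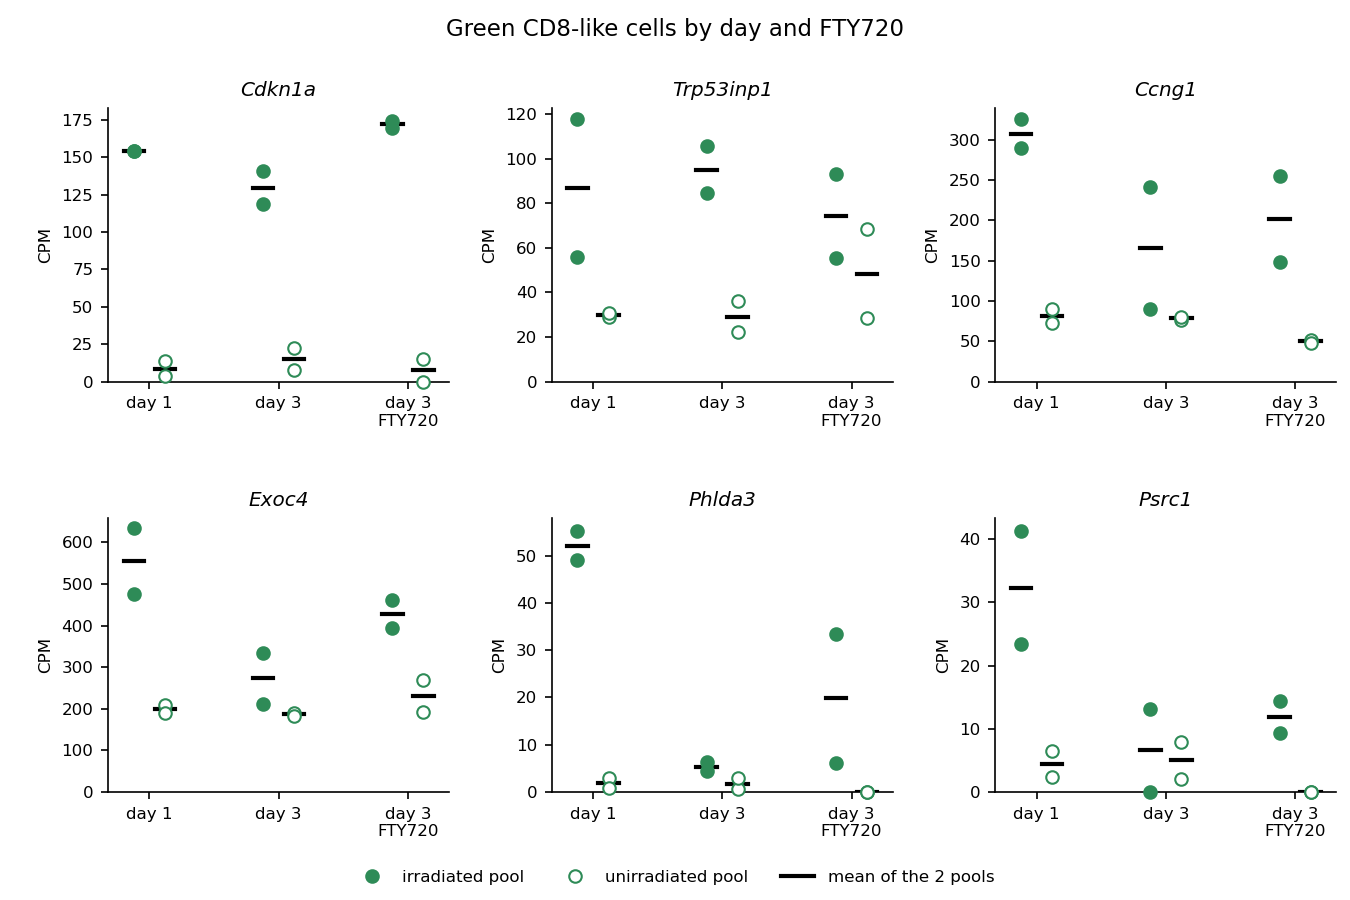
Levels of 6 genes in green CD8-like cells, in CPM, at day 1, day 3 and day 3 with FTY720, with filled points for RT pools and open points for NT pools. Phlda3 is at 49.1 and 55.1 in the RT D1 pools and at 4.39 and 6.25 in the RT D3 pools, while Cdkn1a stays between 119 and 174 in all 6 RT pools.

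Under FTY720 the radiation effect in CD8-like cells was 2.74 ± 0.39 for Cdkn1a and 1.26 ± 0.24 for Ccng1 on the log2 scale, and these 2 of 9 genes were past the threshold, where 1.55% of all genes were higher. Both groups of this stratum share a well. Its difference from the effect at day 3 without FTY720 was 1.41 ± 0.51 for Cdkn1a (edgeR adjusted p = 0.412), 1.00 ± 0.31 for Ccng1 (adjusted p = 0.398) and 4.39 ± 1.41 for Phlda3 (adjusted p = 0.398). None of 9 genes passed the threshold, where 0.00973% of all genes did and 953 had an unadjusted p under 0.05, and DESeq2 called none of the 9. In conventional CD4-like cells none of 8 genes passed for that difference (0.0117% of all genes, 613 at an unadjusted p under 0.05, DESeq2 0). Within the FTY720 stratum of RT against NT, edgeR called 0 of 7 genes in Foxp3+ CD4 cells, where 0.0361% of all genes were higher and 909 had an unadjusted p under 0.05, and 0 of 8 in conventional CD4-like cells, where 0.0352% were higher and 1020 had one. FTY720 against none at day 3, averaged over radiation, gave 0.44 ± 0.12 for Exoc4 (adjusted p = 0.542) and -0.03 ± 0.25 for Cdkn1a (adjusted p = 1.00) in CD8-like cells, with 0 of 9 past the threshold in edgeR and in DESeq2, beside 0.00973% of all genes and 790 at an unadjusted p under 0.05.

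In unirradiated CD8-like cells day 3 against day 1 gave 0.29 ± 0.27 for Cdkn1a (edgeR adjusted p = 0.983) and -0.37 ± 0.19 for Trp53inp1 (adjusted p = 0.907), and 0 of 9 genes passed in edgeR or DESeq2, beside 0.00973% of all genes and 600 at an unadjusted p under 0.05. In conventional CD4-like cells FTY720 against none gave 1.95 ± 0.34 for Cdkn1a (adjusted p = 0.0954), where 0.0469% of all genes passed, 740 had an unadjusted p under 0.05, and DESeq2 called Cdkn1a. FTY720 D3 replicate 2 and RT+FTY720 D3 replicate 1, the pools that stand apart, are both on the FTY720 side of that contrast. In those cells the difference of the radiation effect between days was past the threshold for 0 of 8 genes (0.739% of all genes, 820 at an unadjusted p under 0.05, DESeq2 0), and in Foxp3+ CD4 cells for 0 of 7 (0.0% of all genes, 377 at an unadjusted p under 0.05, DESeq2 0). It was past the threshold for 0 of 5 in naive CD8-like cells (0.0147% of all genes, 675 at an unadjusted p under 0.05, DESeq2 0) and for 0 of 9 in the Klra7/Eomes-led CD8 cells (0.0796% of all genes, 619 at an unadjusted p under 0.05, DESeq2 0). At day 3 alone, Cdkn1a in conventional CD4-like cells had a log2 fold change of 2.81 ± 0.46 and was the 1 gene of 8 past the threshold, where 2.76% of all genes were.

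Red cells were then set against green cells of the same tumour pools, with the pool as a block. The irradiated pools are among them, so p-values over all pools are not independent of how the genes were chosen. In CD8-like cells Exoc4 was lower in red cells, by a log2 difference of -0.72 ± 0.18 (edgeR adjusted p = 0.0217), with red below green in 11 of 12 pools, and it was the 1 gene of 9 past the threshold, where 7.07% of all genes were. In the irradiated pools Exoc4 averaged 179 ± 100.3 CPM in red cells and 419 ± 143 in green cells, and in the unirradiated pools 171 ± 33.0 in red cells and 206 ± 32.7 in green cells (SD, n = 6 each). The log2 difference was -0.23 ± 0.10 over the unirradiated pools alone (adjusted p = 0.189), and with the colours of the labels it was 0.05 ± 0.26 (adjusted p = 1.00). Cdkn1a had a difference of -0.44 ± 0.45 over all pools (adjusted p = 0.616), which joins opposite directions. In the irradiated pools Cdkn1a averaged 42.9 ± 28.6 in red cells and 152 ± 20.3 in green cells, with red lower in 6 of 6 pools, and in the unirradiated pools 29.1 ± 10.4 in red cells and 10.5 ± 8.22 in green cells, with red higher in 6 of 6.

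Over the unirradiated pools alone, which hold no irradiated cell, red CD8-like cells were higher in Cdkn1a by 1.47 ± 0.28 (edgeR adjusted p = 0.0087) and in Trp53inp1 by 0.74 ± 0.18 (adjusted p = 0.0334), in a fit where 391 of 10128 genes were higher in red cells. With the colours of the labels the sign in replicate 2 turns round for every gene, so these differences hold only if the names in the matrices are right. In Foxp3+ CD4 cells 0 of 7 genes passed, where 1.45% of all genes did and 1214 had an unadjusted p under 0.05, and the difference for Cdkn1a, which DESeq2 called, was -0.85 ± 0.22 (adjusted p = 0.0593). With the colours of the labels it was -0.06 ± 0.32. The Cdkn1a difference in Foxp3+ CD4 cells was already known from earlier results of these data, so it is no independent support. In the Klra7/Eomes-led CD8 cells, which had both colours in 4 pools, Cdkn1a was at 0, 11.9, 0 and 0.710 CPM in red cells, against 189, 29.5, 13.1 and 10.6 in green cells of RT D1 replicate 2, NT D1 replicate 2, NT D3 replicate 1 and NT D3 replicate 2. Red was lower in 4 of 4 pools, the log2 difference was -3.84 ± 0.68 (adjusted p = 0.0428), and it was the 1 gene of 6 past the threshold, where 0.198% of all genes were. DESeq2 did not call it, and with the colours of the labels it was 2.71 ± 0.86. None of 8 genes in conventional CD4-like cells passed (0.107% of all genes, 481 at an unadjusted p under 0.05, DESeq2 0), nor did any of 4 in naive CD8-like cells (0.0% of all genes, 131 at an unadjusted p under 0.05, DESeq2 0).

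Single cells were compared after thinning each cell to 8000 UMIs, which left 168 green CD8-like cells of irradiated and 380 of unirradiated tumours. Cdkn1a was detected in 42.9% of the irradiated cells (exact 95% interval 35.3 to 50.7) and in 6.32% of the unirradiated cells (4.09 to 9.25). Unirradiated naive CD8-like cells, which held almost none of it in the sums, had it in 1.92% (0.234 to 6.77) at the same depth. Phlda3 was detected in 25.6% of irradiated and 1.05% of unirradiated green CD8-like cells, Psrc1 in 14.9% and 1.58%, and Cox6b2 in 12.5% and 0.789%. Genes already common without radiation differed less: Ccng1 was in 65.5% of irradiated and 44.5% of unirradiated cells, Exoc4 in 81.5% and 71.1%, and Mdm2 in 46.4% and 42.9%. These intervals cover the counting of cells only, since cells of 1 pool are not replicates.

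Cells with many of the 10 genes at once were found mainly in irradiated tumours. Of the green CD8-like cells, 53 of 168 (31.5%, exact interval 24.6 to 39.2) held UMIs of 5 or more genes in irradiated tumours, against 9 of 380 (2.37%, 1.09 to 4.45) in unirradiated tumours. By pool the share was 26.3% and 40.4% in RT D1, 10.0% and 18.8% in RT D3 and 15.4% and 28.6% in RT+FTY720 D3, against 0% and 4.46% in NT D1, 1.61% and 1.55% in NT D3 and 11.1% and 0% in FTY720 D3, where the 11.1% is 1 cell of 9. In red CD8-like cells it was 26 of 254 (10.2%) in irradiated and 10 of 424 (2.36%) in unirradiated tumours, and 22 of those 26 cells came from RT D1 replicate 1. Among green Foxp3+ CD4 cells it was 23 of 51 (45.1%) in irradiated tumours and 7.50% in unirradiated tumours, and among red ones 5.16% and 4.65%. Of those 23 green cells 17 came from RT D1 replicate 2, which held 33 of the 51. Conventional CD4-like cells had 24.5% in irradiated and 4.27% in unirradiated tumours, and naive CD8-like cells 2 of 40 (5.00%) in irradiated and 0 of 104 in unirradiated tumours.

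**Figure D4:**
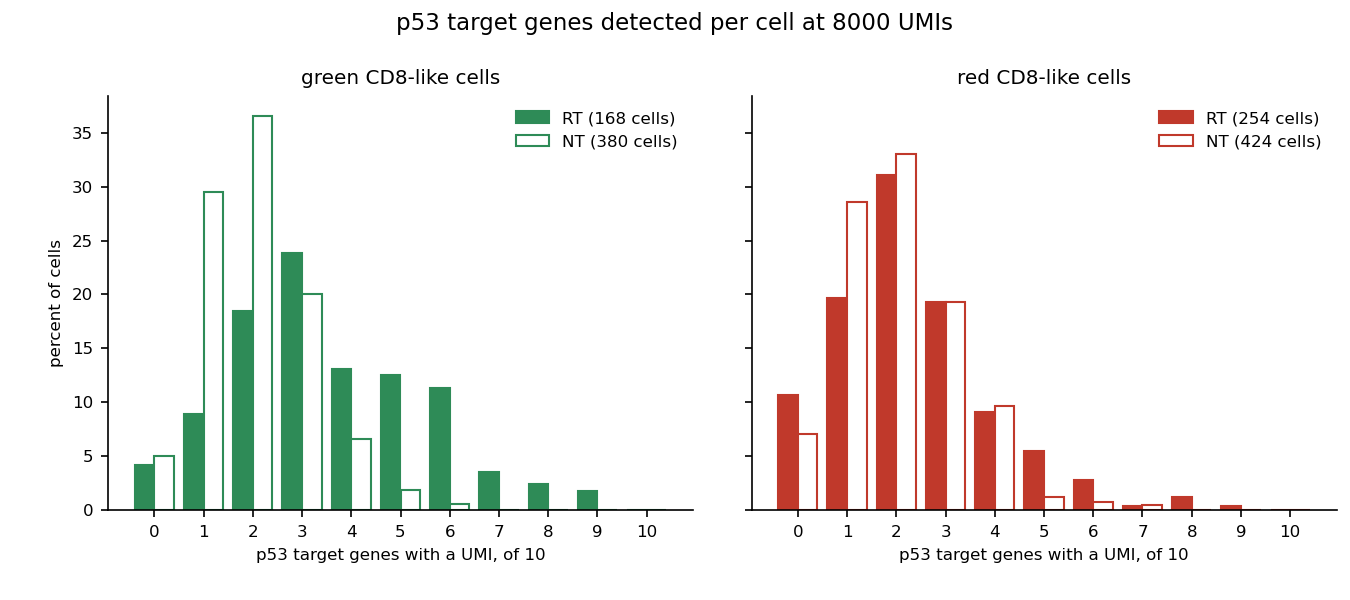
Percent of CD8-like cells by how many of the 10 genes had a UMI after thinning to 8000 UMIs, for green cells (168 RT and 380 NT) and red cells (254 RT and 424 NT). The mean is 3.60 genes in green RT cells and 2.01 in green NT cells, and 2.36 in red RT cells and 2.05 in red NT cells.

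Within irradiated green CD8-like cells the genes were seen together somewhat more often than their separate frequencies give. Of 45 pairs, 34 had an expected number of at least 5 cells, and 32 of these were seen together more often than the product of the shares, with a median ratio of observed to expected of 1.20. The highest ratio was for Phlda3 and Psrc1, together in 17 cells where the product gives 7.55, followed by Phlda3 and Cox6b2, together in 11 cells where it gives 5.97, while Cdkn1a and Phlda3 were together in 29 cells where it gives 17.9. The lowest was for Trp53inp1 and Zmat3, together in 16 cells where the product gives 17.6. In unirradiated green cells 9 of 14 pairs lay above the product, with a median ratio of 1.04. Expected numbers were taken within each pool and summed over the 6 pools of each kind. Differences in shares between pools thus do not enter these ratios. Cells of 1 pool are not replicates, and the ratios were not tested.

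In the irradiated green sample with the most cells, RT D1 replicate 2, the 36 cells with 5 or more of the genes had 4.03 cell cycle UMIs per 10000 and Mki67, a proliferation marker, in 25.0%, against 10.3 per 10000 and 34.0% in the 53 cells with fewer. Their median depth was 16916.5 UMIs and that of the others 19385 UMIs before thinning. In red RT D1 replicate 1 the 22 cells with 5 or more had 5.81 per 10000 and Mki67 in 27.3%, against 8.36 per 10000 and 53.6% in the other 56 cells. In the other green irradiated samples with at least 5 such cells, cells with 5 or more of the genes had 3.12 per 10000, against 4.15 in the rest, in RT D1 replicate 1. They had 2.99, against 4.58 in the rest, in RT+FTY720 D3 replicate 2. The one unirradiated sample with 5 such cells, green NT D1 replicate 2, went the other way, with 42.4 per 10000 and Mki67 in 60.0% of the 5 cells, against 11.3 per 10000 and 41.1% in the other 107. Cells with more of the genes thus held less cell cycle RNA in these 4 irradiated samples and more in the unirradiated one. This was not tested.

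Other genes of the pathway, taken from lists by role, were counted in the same contrast of RT with NT. In green CD8-like cells 1 of 14 further arrest and feedback genes was higher past the threshold, Mdm4, a partner of Mdm2 in restraining p53, at 166 ± 45.2 CPM in RT pools and 84.9 ± 18.2 in NT pools. Of 12 death genes 2 were higher, Bbc3 with a log2 fold change of 1.95 ± 0.38 and Bax with 1.02 ± 0.21, both pro-apoptotic members of the BCL2 family. Of 7 repair genes 1 was higher, Polk, a translesion DNA polymerase, with 1.05 ± 0.19, and of 12 genes of metabolism and other roles 1, the noncoding RNA gene Pvt1, with 0.91 ± 0.24. None of the 45 was lower in these cells, where 3.78% of all genes were higher. Of the 4 lists 7, 9, 6 and 3 genes passed the filter, with median log2 fold changes of 0.51, 0.62, -0.09 and 0.26. In red CD8-like cells none was past the threshold. Cell cycle genes were lower in green irradiated cells: 9 of 26 passed the threshold as lower and none as higher, with a median of -1.22 over the 18 that passed the filter, beside 172 of 7413 genes lower in all. The 3 with the largest differences were Cenpf (-3.11 ± 0.57), Ccna2 (-2.66 ± 0.51) and Ccnb2 (-2.46 ± 0.54). With both colours summed 0 of 26 were past the threshold, with a median of -0.49, and red cells alone had a median of 0.04.

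Markers of several other cell types were summed in the same pools. In green CD8-like cells the summed MC38 tumour markers spanned 13.2 to 70.0 CPM in RT pools, against 25.7 to 52.3 in NT pools, with Krt8 and Krt19, 2 of 5, at 0. Cdh1 held the most UMIs of this list, and it was also among the leading genes of a CD8-like cluster. The myeloid markers summed to 40.1 to 114 in RT pools, against 53.3 to 195 in NT pools. The NK markers summed to 12.4 to 58.7 in RT pools, against 30.0 to 103 in NT pools, with Ncr1 at 0. Most of their UMIs came from Eomes, which was detected in 26.0% of all CD8-like cells. The RT pools overlapped the NT pools for these 3 lists, and none of the 3 was higher in RT pools by its median. Fibroblast markers were at 0 in RT pools, against 0 to 1.67 in NT pools, with Dcn and Col3a1 at 0. Gamma delta T cell markers summed to 0 to 22.0 in RT pools, against 0 to 5.81 in NT pools, and erythroid markers to 0 to 3.13 in RT pools, against 0 in NT pools. Their part in the results was not tested.

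Across the 12 sums of green CD8-like cells, the genes outside the lists whose level followed the mean of the measured p53 targets most closely were Csnk1g1, a casein kinase (Pearson r = 0.975), Irf9, a transcription factor of interferon signalling (r = 0.975), Yipf3 (r = 0.938), Laptm5, a lysosomal membrane protein of blood cells (r = 0.924), and Selplg, the P-selectin ligand (r = 0.923). These are descriptions over 7413 genes and 12 sums, in which the RT and NT pools form separate groups. Csnk1g1 averaged 160 ± 11.3 CPM in RT pools and 96.4 ± 8.32 in NT pools (SD, n = 6 each), with a log2 fold change of 0.74 ± 0.11.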

How the data were processed

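T cells sorted from tumours were sequenced with a 10x 5' chemistry in 4 wells, 2 per replicate, and hashtag antibodies marked pool, condition and colour. Per the submitters' processing notes the tools included Cell Ranger 8.0.1 and the build mm39. The authors deposited raw UMI counts per gene and cell, with no normalization. Cells were kept with at least 500 genes, at most 10% mitochondrial UMIs and a hashtag of at least 20 UMIs that was at least 3 times the next. The 24 hashtagged samples summed to 337319 to 7891316 UMIs. Cells were clustered with scanpy 1.11.5 in Python 3.11.15 on 1986 variable genes, leaving out 14 genes of the p53 lists, and clusters were named from marker lists. The 306 cells of 2 mixed clusters, led by interferon and cell cycle genes, were split by lineage markers, and 2 cells were left unassigned. In 92.4% of the other cells this rule gave the same lineage as the clusters, CD8, Foxp3+ CD4 or other CD4. Naive cells and the Klra7/Eomes-led CD8 cells were counted with their lineage there, and the rule cannot assign the Klra7/Eomes-led class. No doublet caller was run, and 90 cells with at least 2 T cell receptor beta chains were kept.

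Counts were summed per pool and class (and colour) over at least 5 cells and fitted over all genes with edgeR 4.0.16 in R 4.3.3: filterByExpr, TMM scaling and the quasi-likelihood test, with Benjamini-Hochberg adjustment over all genes tested and a threshold of 0.05. Radiation was fitted with the stratum of day and FTY720 as a covariate, the day and FTY720 contrasts with a mean per condition, and colour with the pool as a block. The fit was tested on simulated counts. Alternatives were DESeq2 1.42.0, no filter on low counts, at least 10 cells per sum, the mixed clusters left out, clustering on all variable genes, a replicate block, strata that share a well, the colours of the labels and leaving out each pool. Cells were thinned to 8000 UMIs for shares of cells, with 4000 UMIs and no thinning as alternatives, and exact binomial intervals are at 95%. The count of 0 for Eda2r in unirradiated CD8-like cells is given with the limit that 3 counts allow, and other values of 0 are given without one.

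The 10 genes, the pathway lists and the marker lists were chosen with earlier results of these data known. All 10 are described, of the other lists the named genes are up to 3 per role with the largest change past the threshold, and the most alike genes are the 5 outside the lists with the highest correlation to the mean of the measured genes in green CD8-like sums. Promoter windows are from RefSeq on GRCm38.p6, which is another build than that of the counts, so no position in the counts is compared with them. One list of markers of other cells is not reported here.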

Additional observations from a re-analysis of the deposited data

Results flagged for a closer look

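In 62 groups of 4 to 10 sums, 15 single values lay farther from the rest of their group than Dixon's test allows at the 95% level, which chance gives in about 1 group of 20, and each group joins pools of different day and FTY720 treatment. Red CD8-like cells of RT D1 replicate 1 (89 cells) gave 5 of them, all high in CPM: Cdkn1a at 101, where the other RT pools spanned 29.2 to 35.0, Ccng1 at 215 (52.4 to 80.4), Exoc4 at 382 (122 to 154), Psrc1 at 18.4 (0 to 2.66) and Cox6b2 at 14.7 (0 to 4.77). Conventional CD4-like cells of FTY720 D3 replicate 2 (12 cells) gave 4, also high: Cdkn1a at 183, where the other NT pools spanned 15.5 to 60.2, Ccng1 at 187 (102 to 119), Phlda3 at 89.2 (0 to 4.07) and Zmat3 at 51.0 (9.66 to 15.6). Conventional CD4-like cells of RT+FTY720 D3 replicate 1 (10 cells) held Cdkn1a at 502, where the other RT pools spanned 161 to 249.

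The remaining 5 came from FTY720 D3 replicate 1. In its green CD8-like cells (10 cells) Exoc4 was at 270, where the other NT pools spanned 184 to 210, and Trp53inp1 at 68.6 (22.2 to 36.0). In its red CD8-like cells (9 cells) Zmat3 was at 5.66, from 1 UMI, where the others spanned 13.9 to 16.9. In its Foxp3+ CD4 cells (8 cells) Exoc4 was at 66.1 (144 to 181 in the others) and Trp53inp1 at 239 (90.6 to 119).

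The difference between red and green cells had opposite signs in irradiated and unirradiated pools for 2 genes, and this was not tested as a difference. For Cdkn1a in CD8-like cells red minus green averaged -109 CPM over 6 RT pools, between -145 and -53.3, against 18.6 over 6 NT pools, between 7.34 and 27.6. For Zmat3 in conventional CD4-like cells it averaged -15.7 over 3 RT pools, between -22.8 and -9.65, against 9.81 over 4 NT pools, between 2.36 and 16.5. Both rest on the hashtag names inside the matrices.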

How the results depend on the processing

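Numbers here are counts of the described genes past the adjusted threshold unless another quantity is named, and no cause was tested. For RT against NT, DESeq2 gave 1 in Foxp3+ CD4, 4 in green Foxp3+, 1 in red Foxp3+ and 2 in conventional CD4-like cells. No filter on low counts gave 2 in Foxp3+ CD4, 4 in green Foxp3+, 1 in red Foxp3+, 3 in conventional CD4-like and 3 in Klra7/Eomes-led CD8 cells. At least 10 cells per sum gave 0 in green Foxp3+, 1 in conventional CD4-like and 1 in Klra7/Eomes-led CD8 cells. Without the mixed clusters there were 2 in CD8-like and 1 in conventional CD4-like cells. Clustering on all genes gave 2 in green Foxp3+ cells. Strata that share a well gave 3 in green CD8-like and 2 in green Foxp3+ cells. The colours of the labels gave 0 in green CD8-like, 1 in red CD8-like and 0 in green Foxp3+ cells.

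For the difference of the radiation effect between days DESeq2 gave 3 and no filter 5 in CD8-like cells, and no filter 1 in Klra7/Eomes-led CD8 cells. For its difference with FTY720 no filter gave 1 in CD8-like and 1 in conventional CD4-like cells. For FTY720 against none in conventional CD4-like cells DESeq2 gave 1, no filter 2 and at least 10 cells 1. For red against green, no filter gave 4 in CD8-like and 1 in Foxp3+ CD4 cells, DESeq2 1 in Foxp3+ CD4 and 0 in Klra7/Eomes-led CD8 cells, at least 10 cells 0 in Klra7/Eomes-led CD8 cells, the unirradiated pools alone 2 in CD8-like and 0 in Klra7/Eomes-led CD8 cells, and the colours of the labels 0 in each of these classes. The colours of the labels also turned the sign of Exoc4 in CD8-like cells, to 0.046 on the log2 scale, and of Cdkn1a in Klra7/Eomes-led CD8 cells, to 2.71.

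Without thinning, 50.5% of irradiated and 17.4% of unirradiated green CD8-like cells held 5 or more of the genes, and at 4000 UMIs 15.1% and 0.252%. Cdkn1a was detected in 33.5% of irradiated and 2.27% of unirradiated green CD8-like cells at 4000 UMIs, and in 11.5% of unirradiated cells without thinning. Without thinning 30 of 31 pairs lay above the product in unirradiated CD8-like cells of both colours, in place of 16 of 20. The median ratio was 1.08 at both depths.

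Leaving out each pool in turn gave 3 to 6 in CD8-like, 5 to 8 in green CD8-like, 0 to 1 in Foxp3+ CD4, 0 to 2 in green Foxp3+, 0 to 1 in red Foxp3+, 0 to 1 in conventional CD4-like and 0 to 1 in Klra7/Eomes-led CD8 cells for RT against NT, 0 to 1 for the day difference in CD8-like cells, 0 to 1 for FTY720 in conventional CD4-like cells, and 0 to 1 for colour in Foxp3+ CD4 and in Klra7/Eomes-led CD8 cells. The low value of 0 in green Foxp3+ cells came without RT D1 replicate 2, and the low value of 3 in CD8-like cells came without any of the 4 day 1 pools.

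Replicate numbers do not pair the samples by the labels, and deviations of same-numbered sums correlated between -0.065 and 0.125 over 30 pairs of conditions. The replicate block gave 3 in green Foxp3+ cells in place of 1 and left the count in CD8-like cells at 6. Without the replicate and pool block, red against green gave 1 in Foxp3+ CD4 and 0 in Klra7/Eomes-led CD8 cells. CD8-like sums per colour held 9 to 26 cells in the RT D3, RT+FTY720 D3 and FTY720 D3 pools, which limits the precision there.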
